A study of Mus musculus with 4 samples.

Results

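Tranylcypromine, a small molecule inhibitor of LSD1, was set against loss of the LSD1 transcript itself in differentiating 3T3-L1 cells, a mouse fibroblast line that turns into fat cells under insulin, dexamethasone and isobutylmethylxanthine. The comparison takes the array of the tranylcypromine culture minus the array of the culture given an siRNA against aof2, the older name of Kdm1a, the gene that encodes LSD1. It covers 10788 of the 18194 genes named on the arrays, chosen because their brightest probe set, by mean log2 signal over the 4 arrays, reached a signal of 50.9, which is where the median probe set lies. Just inside this limit lay Col4a6, with a mean signal of 51.0 and a log2 difference of 0.49, and just outside it Reep6, with 50.9 and 0.44.

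Each culture was measured on 1 array. The 3 siRNA cultures were transfected as preadipocytes with an siRNA against aof2, an siRNA against rfk (riboflavin kinase) or the control siRNA siGL3, induced 24 h later and harvested 24 h after induction. Tranylcypromine was given in the induction medium to a culture for which the labels name no siRNA and no dose. All cultures grew in medium with 25 mM glucose and 10% serum. The drug culture therefore differs from the aof2 siRNA culture both in how LSD1 was affected and in whether an siRNA is named, and these cannot be told apart. The control and rfk siRNA arrays are given beside the pair to show where each of its arrays lies. With 1 array on each side there is no test, no p-value and no error across cultures, and "higher" and "lower" describe these arrays. The line is 1 cell line, and nothing in the sources used here gives a further culture of either treatment.

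LSD1 removes methyl groups from lysine 4 of histone H3, using flavin adenine dinucleotide as its cofactor. It works inside complexes with the scaffold CoREST and the deacetylases HDAC1 and HDAC2, which keep target genes silent. Tranylcypromine binds the flavin and blocks the reaction, and it also inhibits the monoamine oxidases, whereas an siRNA removes the messenger and leaves less protein to take part in the complex.

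Values are MAS5 signals, linear intensities that summarise the probes of a probe set, and differences are log2 of tranylcypromine over aof2 siRNA. The cells carried fibroblast transcripts throughout. All 7 named fibroblast and preadipocyte markers passed the limit, with summed signals of 84331 to 88865 over the 4 arrays. Of the fat cell markers Fabp4, Pparg, Cebpa and Lpl passed it and Adipoq did not, with signals of 4.32 to 22.0. Among 4 markers each, leukocytes, endothelium and muscle had 1 past the limit and epithelium had 2, with summed signals of at most 257, 114, 227 and 403.

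Between the tranylcypromine and aof2 siRNA arrays, few of the brighter genes lay far apart. At least 2-fold higher with tranylcypromine were 73 of 10788 genes (0.677%), and at least 2-fold lower were 104 (0.964%). At a 1.5-fold threshold these were 382 (3.54%) and 456 (4.23%). The median over all compared genes was 0.00, with 5393 genes higher (50%) and 5395 lower. For comparison, tranylcypromine against the control array gave 241 and 102 genes, and aof2 siRNA against it 174 and 58, or 2.23% and 0.945%, and 1.61% and 0.538%. These comparisons share arrays with each other. The 73 and 104 genes span a median of 20.6 kb and 21.0 kb in the genome, against 23.2 kb for all compared genes.

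**Figure D1:**
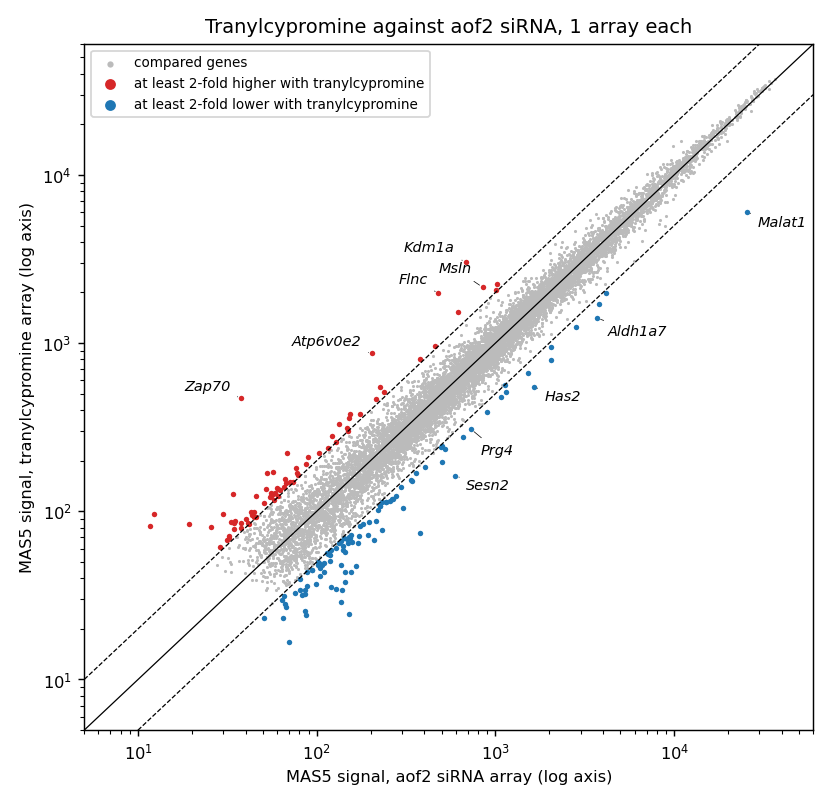
MAS5 signals of the 10788 compared genes on the aof2 siRNA array (horizontal) and the tranylcypromine array (vertical), both on log axes, with 1 point per gene, the solid line marking equal signals and the dashed lines 2-fold. Most of the 73 red and 104 blue points lie at low signals, while Kdm1a, Zap70, Flnc and Malat1 lie far from the line.

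Most genes past 2-fold were dim. Only 13 of the 73 higher and 20 of the 104 lower genes reached a signal of 414 (the 75th percentile of probe sets) on the brighter array, among 7124 genes that did, or 0.182% and 0.281%. Genes that reached it are called bright below. With the compared genes ranked by mean signal into 4 classes of equal size, the dimmest class held 61 of the 73 and 81 of the 104. The spread of the difference, as an SD scaled from the median absolute deviation over genes, was 0.44 in that class and 0.16 in the brightest.

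Added control transcripts give a measure of array error. For the hybridisation controls, 18 probe sets, the difference had a mean of -0.070 ± 0.085 (SD over probe sets). The 24 probe sets of the poly-A controls, which go through labelling with the sample, were lower with tranylcypromine by a mean of -0.31 ± 0.15, and 23 of the 24 were below 0. This offset is as large as many differences below, and its part in them was not tested. In 5228 genes with several probe sets past the limit, these lay apart by a median of 0.32. Of the 37 such genes past 2-fold, 25 had every probe set on the same side. Signals from the 3' over the 5' end were alike on both arrays, at 0.836 and 0.839 for Gapdh and 1.28 and 1.34 for beta-actin.

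Where a gene was 2-fold apart, it was more often the tranylcypromine array that stood away from all others. Of the 73 higher genes, 24 had a tranylcypromine signal at least 2-fold above each of the 3 siRNA arrays, 11 had an aof2 siRNA signal at least 2-fold below each of the 3 other arrays, and 38 had neither. Of the 104 lower genes these numbers were 38, 5 and 61. Among the 13 bright higher genes they were 8, 2 and 3, and among the 20 bright lower genes 8, 1 and 11.

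Kdm1a was the targeted transcript and separated the arrays as the labels say. Its signal was 681 with aof2 siRNA and 3054 with tranylcypromine, against 3494 with control siRNA and 3471 with rfk siRNA. It was thus 4.48-fold higher with the inhibitor, and its probe sets gave 2.16 and 2.23. Drug-treated cells kept the messenger near the level of the other arrays, while the aof2 siRNA array alone was low.

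For LSD1's partners the differences were smaller. Of 24 compared members of this list, 9 were higher and 15 lower with tranylcypromine, with a median of -0.019. Kdm1a was the only member at least 1.5-fold apart, beside 3.54% of all compared genes higher and 4.23% lower. After Kdm1a the highest were Hmg20b (0.32), a subunit of the CoREST complex, and the repressor gene Snai2 (0.29), and the lowest were Rest (-0.53), which recruits CoREST to neuronal genes, the corepressor gene Ctbp2 (-0.46) and the helicase gene Chd3 (-0.35). Without probe sets that match several transcripts Snai2 stood at -1.49, and 1 of the probe sets of Rest gave 0.089, so neither has a settled direction. Rfk, which supplies the flavin, had signals of 2122, 2018, 573 and 2334 on the arrays of control, aof2 and rfk siRNA and of the drug, and was low on the rfk siRNA array alone.

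Among the monoamine oxidases, which tranylcypromine also inhibits, the compared transcript differed little in level. Maoa, a monoamine oxidase, had signals of 2873, 2738, 2496 and 2827 in the same order, a difference of 0.046, with probe sets from -0.33 to 0.046, so it has no settled direction. Maob was below the limit on signal. Of 14 amine oxidase and polyamine genes 9 were higher and 5 lower, with a median of 0.037. The one past 2-fold was Aoc3, a copper amine oxidase of the fat cell surface, at -1.17. It had signals of 304, 339 and 268 in the siRNA arrays and 151 with tranylcypromine. Over all compared genes 0.677% were at least 2-fold higher and 0.964% lower. The collagen-crosslinking oxidase genes Loxl4 and Lox stood at -0.48 and -0.31, with other probe sets up to 0.18 and 0.053. Odc1, the first enzyme of polyamine synthesis, was the highest at 0.43.

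Among bright genes, those furthest above aof2 siRNA with tranylcypromine were of mixed function. Zap70, a kinase of T cell receptor signalling, had 37.7 with aof2 siRNA and 471 with tranylcypromine, against 352 in the control and 84.4 in the rfk siRNA array. The aof2 siRNA signal lay below the limit of 50.9 and the rfk siRNA array was low too, so the difference of 3.64, from 1 probe set, has no firm size. Atp6v0e2, a subunit of the proton pump of lysosomes, had 869 with tranylcypromine against 116, 204 and 54.2 with control, aof2 and rfk siRNA. Here tranylcypromine lay 4.26-fold above aof2 siRNA and above all siRNA arrays.

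Flnc, a filamin of muscle, followed at 2.05, with 1983 against 703, 479.8 and 458 in the siRNA arrays. Its other probe set gave -0.19, the opposite direction. Igfbp6, a binding protein of insulin-like growth factors, had 1530.0 with tranylcypromine and 420.5, 615 and 451 in the siRNA arrays, a difference of 1.31. The tranylcypromine array lay above all 3 of them.

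Further bright genes at least 2-fold higher were Msln (1.34), Gm11476 (1.28), the sterol reductase gene Tm7sf2 (1.15), the RNA-binding protein gene Fxr2 (1.12), the cell adhesion gene Cadm4 (1.09), the zinc finger gene Bnc1 (1.09), Cystm1 (1.07) and the chaperone gene Hspa4l (1.03). Cadm4 had signals of 189, 239 and 184 in the control, aof2 and rfk siRNA arrays and 510.2 with tranylcypromine. For Fxr2 these were 285, 215 and 263, and 466. Just under the threshold stood Ddah1, which breaks down methylated arginine, at 0.99 with probe sets from -0.20 to 0.99, and the Polycomb gene Pcgf5 at 0.93. Dpp7, a peptidase of the vesicle lumen, stood at 0.93, but its probe sets reached down to -0.44.

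The bright genes furthest below aof2 siRNA were Malat1, Sesn2 and Has2. Malat1, a long RNA retained in nuclear speckles, had 5989 with tranylcypromine against 21500, 25502 and 24819.8 in the siRNA arrays. It was 4.26-fold lower, although its 7 probe sets ranged from -3.33 to 0.22. Sesn2, a sestrin that restrains mTORC1 under stress, had 162 against 593, 597 and 659, a difference of -1.88. For both genes the 3 siRNA arrays lay together and the tranylcypromine array lay below them, but the further probe set of Sesn2 gave -0.24.

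Has2, the main hyaluronan synthase of fibroblasts, had 549 with tranylcypromine and 1920.1, 1638 and 1896 in the siRNA arrays, and its probe sets gave -1.58 and -0.80. Prg4, which encodes lubricin, had 307 against 1063, 732 and 753. Ppp1r3c, which brings a phosphatase to glycogen, had 277 against 1133, 657 and 817, with probe sets at -1.25 and -0.94. In each of the 3 the tranylcypromine array was the lowest and the aof2 siRNA array the lowest of the siRNA arrays.

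In other genes both the aof2 and rfk siRNA arrays lay above control. Aldh1a7, an aldehyde dehydrogenase, had 3708 with aof2 siRNA, 3039 with rfk siRNA and 1406 with tranylcypromine, against 834 in the control array. The receptor gene Lpar4 had 2043 and 2206 with the aof2 and rfk siRNAs, 1295 in the control and 796 with tranylcypromine, and its 3 probe sets lay between -1.36 and -1.28. The engulfment adaptor gene Gulp1 (-1.17) and Map7d2 (-1.15) showed the same order, with the aof2 and rfk siRNA arrays above control and tranylcypromine below it. Another Gulp1 probe set gave -0.52, with tranylcypromine (1681) above control (1449).

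The rest of the lowest bright genes were the protease inhibitor gene Serpinb1a (-1.37), Wdr48 (-1.20), the membrane scaffold gene Ank3 (-1.19), the antigen-presenting gene Cd1d1 (-1.15), the exonuclease gene Xrn2 (-1.15) and the natriuretic peptide receptor gene Npr3 (-1.15). Other probe sets of Wdr48 and Xrn2 gave up to 0.095 and 0.60, so that their direction is not settled. Fas, a death receptor gene, stood at -1.05 with 243 against 777, 505 and 610.3 in the siRNA arrays. Elavl2, Serf1 and Cd1d1 were likewise lowest with tranylcypromine, and Elavl2 stood at -1.0 and Serf1 at -0.95.

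**Figure D2:**
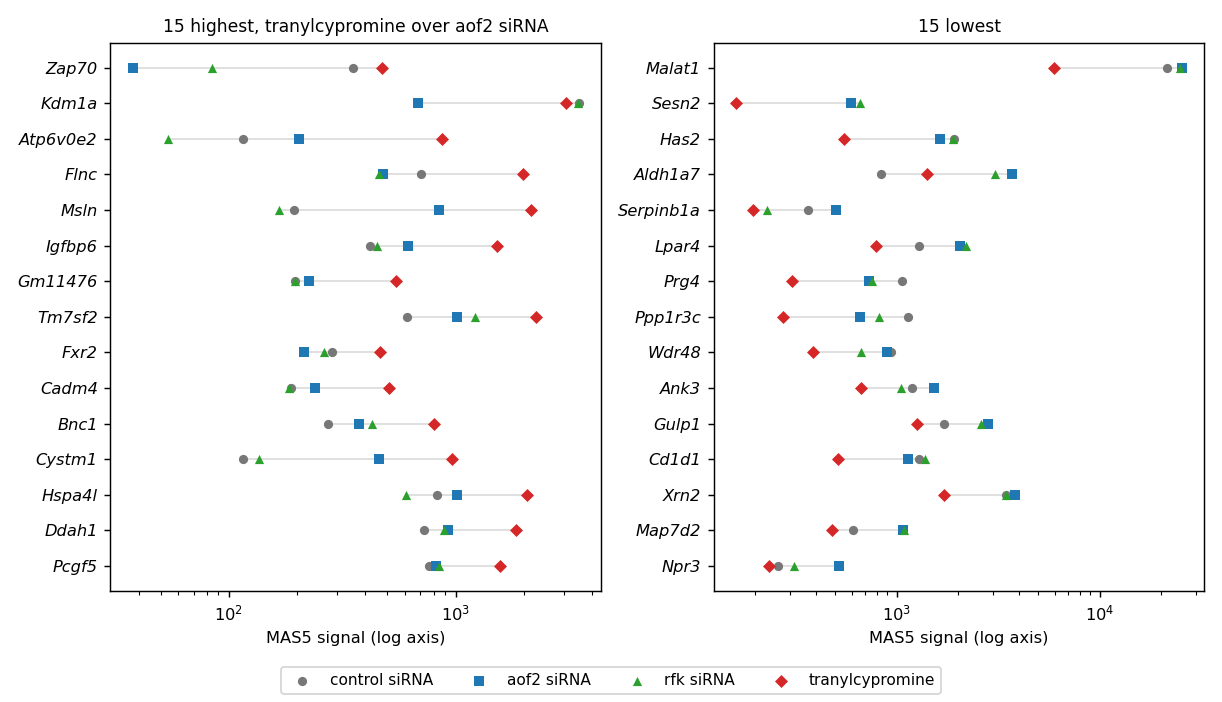
MAS5 signals (log axis) of the 15 highest and 15 lowest bright genes by tranylcypromine over aof2 siRNA, with 1 point per array and a grey line from the lowest to the highest. The aof2 siRNA array is far below the others for Kdm1a (681 against at least 3054), and the tranylcypromine array is far below them for Malat1, Sesn2 and Has2.

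In other bright genes the aof2 siRNA array stood away from the 3 others, tranylcypromine included. Furthest above among bright genes were Fam107a, an actin-associated stress gene, with 2055 against 199.6, 1003 and 947 in the control, rfk siRNA and tranylcypromine arrays, and the complement protease gene Masp1, with 955 against 399, 522 and 518. The peptidase inhibitor gene Pi16 had 589.9 against 152, 280.4 and 342. Postn, which encodes a matrix protein, had 6623 against 3778, 4455 and 4071. In each of these the aof2 siRNA array was the highest of the 4. For P2ry10b, Orm3, Npr3, the ribonuclease gene Rnase4, the protease gene Capn1 and the proteoglycan gene Aspn the differences were -0.84, -0.99, -1.15, -0.66, -0.62 and -0.62.

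Among bright genes, furthest below the others on the aof2 siRNA array, after Kdm1a and Zap70, was Ptgfr, the receptor for prostaglandin F2 alpha. It had 640.2 against 1337, 1228 and 1124, a difference of 0.81, although 1 of its 5 probe sets gave -0.071. The prefoldin-like gene Uri1 had 1036 against 1722, 2058 and 1810.0, with probe sets at 0.36 to 0.81. Lonrf1 had 340.5 against 585, 556 and 591, and the coenzyme A synthesis gene Pank1 398 against 696, 628 and 592, although the average of all Pank1 probe sets gave -0.18. For these genes tranylcypromine lay with the control and rfk siRNA arrays. Emb (0.72) and Tmem11 (0.52) were also lowest with aof2 siRNA, while probe sets of the iron transporter gene Slc11a2 (-0.55 to 0.83) and of Tbl2 (-0.36 to 0.67) disagreed in direction.

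Genes of cholesterol synthesis were higher with tranylcypromine than with aof2 siRNA as a group. Of the 23 compared members 22 were higher, with a median of 0.42 against 0.00 for all compared genes, and 4 were at least 1.5-fold higher (3.54% of all genes were). This median was the highest of the 34 lists with at least 5 compared members, and stayed between 0.41 and 0.45 under the 7 other settings. Earlier results had already shown the group above control with tranylcypromine, so it is no independent support. Tm7sf2, a sterol reductase, had 613, 1019.7, 1218 and 2259 on the arrays of control, aof2 and rfk siRNA and of the drug. Ebp, a sterol isomerase, had 2448, 3672, 3159 and 5892 in that order. In both the tranylcypromine array was the highest and the control array the lowest.

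Enzymes from the start to the end of the pathway were higher. In the mevalonate part, Hmgcs1, which makes HMG-CoA, stood at 0.22, the kinase genes Mvk and Pmvk at 0.64 and 0.61, the decarboxylase gene Mvd at 0.58, Idi1 at 0.36 and the farnesyl diphosphate synthase gene Fdps at 0.55. Mvk had signals of 1135, 1077, 1322 and 1678, and Fdps of 11302, 10919.7, 11880.3 and 15998, in the order given above. Ggps1, which leads away from sterols to geranylgeranyl groups, was the exception, with 409 and 398, or -0.036, and with probe sets from -0.43 to 0.43. In the sterol part, Fdft1, Sqle and Lss, which make and close squalene, stood at 0.41, 0.38 and 0.42, and the demethylation and late steps Cyp51, Msmo1, Nsdhl, Hsd17b7, Sc5d and Dhcr7 between 0.38 and 0.56. Other probe sets of Fdft1 and Msmo1 gave -0.085 and -0.12.

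Regulators of the pathway differed less. Srebf2, the transcription factor gene that drives it, stood at 0.18, its escort gene Scap at 0.24 and the retention genes Insig1 and Insig2 at 0.27 and 0.18, though Insig2 stood at -0.036 when its probe sets were averaged. The sterol carrier gene Stard4 stood at 0.41. Tranylcypromine had the highest of the 4 signals in 18 of the 23 genes, against 27.7% of all compared genes, and the aof2 siRNA array had the lowest in 10, against 22.1%.

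**Figure D3:**
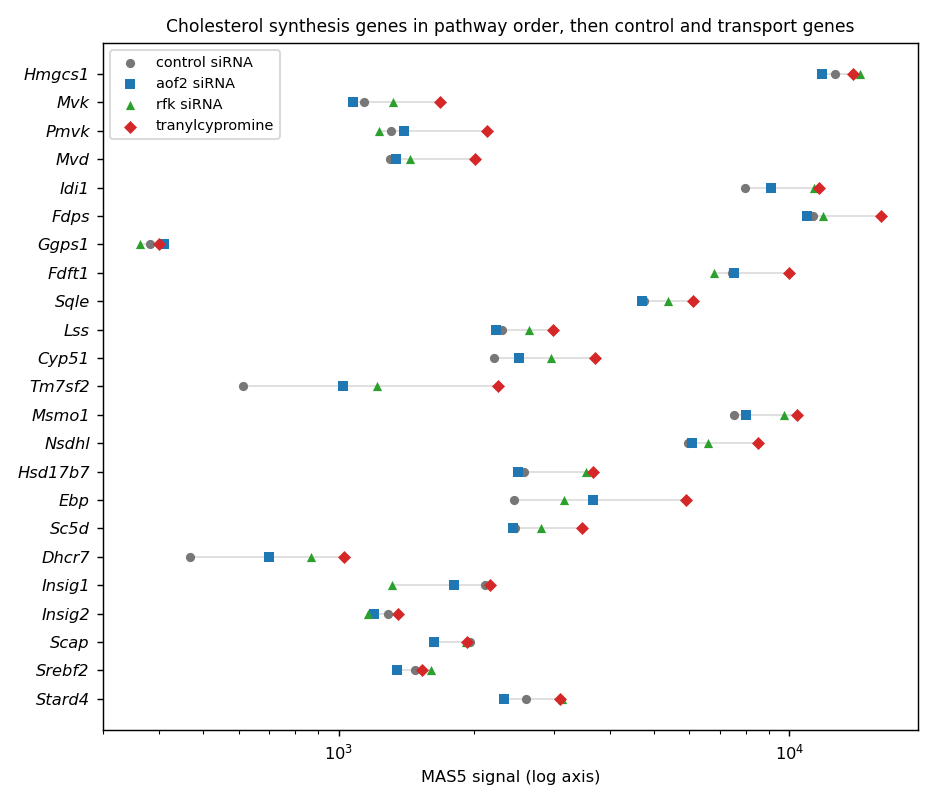
MAS5 signals (log axis) of 23 cholesterol genes, the enzymes in pathway order from the top and then control and transport genes, with 1 point per array. The tranylcypromine array has the highest signal in 18 of the 23 genes, and Tm7sf2 has the widest range.

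Because these genes lay on the same side, the stretch before their transcription starts is shown for the 3 with the largest differences and for Hmgcs1. Each is the 250 bases upstream of the start, 5' to 3' on the gene's strand, from RefSeq on GRCm38.p6, in lower case. Capitals mark the letters CCAAT or their reverse complement ATTGG, the core of the box bound by the factor NF-Y, and CACCCCAC or GTGGGGTG, part of the classical sterol regulatory element. Tm7sf2 lies at chr19:6067851-6068100 (minus strand), Ebp at chrX:8193513-8193762 (minus), Mvk at chr5:114444019-114444268 (plus) and Hmgcs1 at chr13:119690101-119690350 (plus).
Tm7sf2: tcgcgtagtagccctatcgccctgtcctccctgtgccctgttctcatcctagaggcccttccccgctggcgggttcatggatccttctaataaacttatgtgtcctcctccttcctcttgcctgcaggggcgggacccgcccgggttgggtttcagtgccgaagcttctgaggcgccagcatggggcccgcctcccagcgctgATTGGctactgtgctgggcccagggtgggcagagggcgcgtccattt
Ebp: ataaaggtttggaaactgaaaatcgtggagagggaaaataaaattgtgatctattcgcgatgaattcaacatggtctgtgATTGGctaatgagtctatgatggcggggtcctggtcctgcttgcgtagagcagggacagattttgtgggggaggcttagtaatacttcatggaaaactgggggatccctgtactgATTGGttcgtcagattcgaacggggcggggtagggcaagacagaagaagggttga
Mvk: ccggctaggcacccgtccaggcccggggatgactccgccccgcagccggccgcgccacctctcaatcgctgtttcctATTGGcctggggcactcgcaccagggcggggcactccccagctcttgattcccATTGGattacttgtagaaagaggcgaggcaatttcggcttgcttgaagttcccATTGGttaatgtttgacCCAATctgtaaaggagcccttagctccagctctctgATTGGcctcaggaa
Hmgcs1: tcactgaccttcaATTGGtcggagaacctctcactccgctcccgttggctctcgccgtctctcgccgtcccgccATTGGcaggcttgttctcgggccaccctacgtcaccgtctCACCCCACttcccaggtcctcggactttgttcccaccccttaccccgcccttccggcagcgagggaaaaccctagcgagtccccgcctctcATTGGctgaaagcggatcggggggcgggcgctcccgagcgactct

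CCAAT was common in these windows. It occurred 1 time in the Tm7sf2 window, 2 times in Ebp, 5 times in Mvk and 3 times in Hmgcs1, on either strand. Of the 23 compared genes of the list 19 had a promoter in the RefSeq table, and 18 of these 19 held CCAAT in at least 1 listed window (94.7%). The share was 37.5% of all 27025 genes in the table and 40.9% of the 8778 compared genes in it, and 33.8% of all 32851 single windows. Among genes at least 2-fold higher it was 33.9% (20 of 59), and among those at least 2-fold lower 48.7% (37 of 76). CACCCCAC was found in 1 of the 19, Hmgcs1, against 3.42% of compared genes. In the 4 windows no match overlapped another. In Mvk, 4 of the 5 matches had the letters ATTGG and followed each other at steps of 53 bases. The matches describe letters in these windows, and no binding was measured.

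Lipogenic genes pointed the same way with smaller differences. Of 21 compared genes of fatty acid and triglyceride synthesis 16 were higher, with a median of 0.25 (0.18 to 0.26 under the other settings). Of the 21, 0 reached 1.5-fold, beside 3.54% of all compared genes higher and 4.23% lower. The acyltransferase gene Agpat3 stood at 0.58 and the fatty acid synthase gene Fasn at 0.55, with 3312, 3449.6, 4041 and 5064 on the arrays of control, aof2 and rfk siRNA and of the drug. Acss2 and Elovl6, which make acetyl-CoA and lengthen fatty acids, both stood at 0.43. Lpin1, a phosphatidate phosphatase and coactivator gene, was the lowest at -0.39, although its other probe set gave 0.23. Srebf1, the transcription factor gene of this pathway, stood at -0.041.

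Among regulators of fuel use, Pnpla2 and Ppargc1a were higher with the inhibitor than with the siRNA, and Pdk4 was lower. Pnpla2, which encodes the lipase that starts triglyceride breakdown, had 239.6 in the control and 197 in the rfk siRNA array, 698 with aof2 siRNA and 963 with tranylcypromine. The aof2 siRNA and drug arrays were the high ones, and tranylcypromine was 1.38-fold above aof2 siRNA. Ppargc1a, a coactivator of mitochondrial genes, had 91.0, 207, 288 and 349.9 in the 4 arrays in the usual order, a difference of 0.76, and its 5 probe sets ranged from 0.73 to 1.10. Pdk4, which holds back pyruvate dehydrogenase, had 2080, 3878, 2663 and 3271 in the same order, a difference of -0.25. For Pdk4 too the aof2 siRNA and drug arrays were the high ones. The fatty acid transporter gene Slc27a1 stood at -0.13, with a further probe set at 0.88, which leaves its direction unsettled.

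Of 16 regulators of fuel use 10 were higher and 6 lower, with a median of 0.037. Pdk1, a kinase like Pdk4, was higher with tranylcypromine at 0.52, from 1416 to 2037, with 2416 in the control. Ucp3 (0.63) and Prdm16, a factor of brown fat identity (-1.23), were dim, with signals of at most 95.8 and 66.3. In the 21 genes of fatty acid oxidation 9 were higher and 12 lower, and the median was -0.0057. Here 0 reached 1.5-fold, beside 3.54% of all compared genes higher and 4.23% lower. Cpt1a, the gate of fatty acid entry to mitochondria, stood at 0.35, with probe sets down to -0.18. Of 45 subunits of the respiratory chain and ATP synthase 34 were higher, but the median was 0.079. All lay between -0.25 (Ndufs8, whose probe sets reached 0.22) and 0.33 (Atp5d). Tranylcypromine was the highest array in 33 of the 45, against 27.7% of all compared genes. It was also the highest in 14 of the 23 cytosolic ribosomal protein genes.

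Transcription factors of fat cell differentiation leaned slightly lower. Of 24 adipogenic transcription factors 15 were lower with tranylcypromine, with a median of -0.094 (-0.096 to -0.061 elsewhere). Cebpd, an early inducer of the programme, had 2011 with tranylcypromine and 2493, 3139 and 3015 in the siRNA arrays, or -0.64. Ebf1 stood at -0.51 with 686 against 1039.7, 975 and 1064, so the tranylcypromine array was the lowest for both. The average of all Ebf1 probe sets gave 0.37, the other direction. Pparg, the master regulator, stood at -0.32, and Zfp423 (-0.82) was dim. Egr2, an early inducer, was the highest at 0.55, although its other probe set gave -0.22.

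Mature fat cell markers and lipid droplet genes gave no common direction. The 8 compared markers had a median of -0.026, with 3 higher and 5 lower, and 8 named members were below the limit. Fabp4, a fatty acid carrier of fat cells, had 2463, 1301, 791 and 1093 in the usual order, so that the 3 other arrays lay below control. Its average over all probe sets gave 0.38, against -0.25 for the brightest. Fabp5, a relative, stood at 0.42 and Retn, a secreted factor, at -0.79 from dim signals of 65.6 and 37.8. The 8 compared genes of lipolysis and the droplet coat had a median of 0.066, and after Pnpla2 the coat protein genes Plin2 and Plin3 (0.19 and 0.15) and at the other end Plin4 (-0.27) and Fitm2 (-0.16) were outermost.

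Extracellular matrix genes leaned the other way. Matrix proteases and inhibitors had the lowest median of the 34 lists, -0.19 (-0.19 to -0.095 elsewhere), with 18 of 21 compared members lower and 5 at least 1.5-fold lower, against 4.23% of all genes. The 5 were Adamts1, Adamts4, Adamts5, Adamts12 and Reck. Adamts1, which cleaves versican, had 2252 with tranylcypromine and 3114, 4115 and 4082 in the siRNA arrays. Adamts4 and Adamts5, aggrecanases, stood at -0.81 and -1.17, Adamts12 at -0.83 and the membrane inhibitor gene Reck at -0.86. Adamts5 was dim, with signals of at most 265 and probe sets from -1.42 to -0.33. Tranylcypromine was the lowest of the 4 arrays in 12 of the 21 and aof2 siRNA the highest in 9, against 28.1% and 22.0% of all genes. Timp2 (0.17), a general protease inhibitor gene, and Mmp11 (0.19) were at the upper end, Timp2 with -0.13 as an average of its probe sets.

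Proteoglycans and hyaluronan genes had a median of -0.10. Against 4.23% of all compared genes, 5 of the 19 were at least 1.5-fold lower. Besides Has2 and Prg4 these were Tnfaip6, which links hyaluronan to other chains (-0.66), Aspn (-0.62) and the collagen-binding decorin gene Dcn (-0.59). Tnfaip6 had 442 with tranylcypromine against 869, 699.7 and 792, lowest of the 4, whereas Aspn had 8297 with aof2 siRNA and 5393 with tranylcypromine, both above 2863 in the control and 3565 with rfk siRNA. The syndecan gene Sdc4 was the highest at 0.32.

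Genes of collagens and their processing were mostly lower. Of 28 compared members, which include the matrix proteins Sparc and Fn1, 19 were lower, with a median of -0.12. Against 4.23% of all compared genes, 3 of the 28 were at least 1.5-fold lower, namely Col11a1 (-0.72), Col5a2 (-0.70) and Col4a5 (-0.61). Col5a2, a chain that sets fibril diameter, had 5073 against 9163, 8230.2 and 7704, and Col5a1, its partner, 3733 against 6581, 5006 and 4741, with another Col5a1 probe set at 0.044. The tranylcypromine array was the lowest for both. Col1a2 and the chains of type VI lay between -0.12 and 0.057, and Col18a1 and Col16a1 were higher at 0.37 and 0.31.

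**Figure D4:**
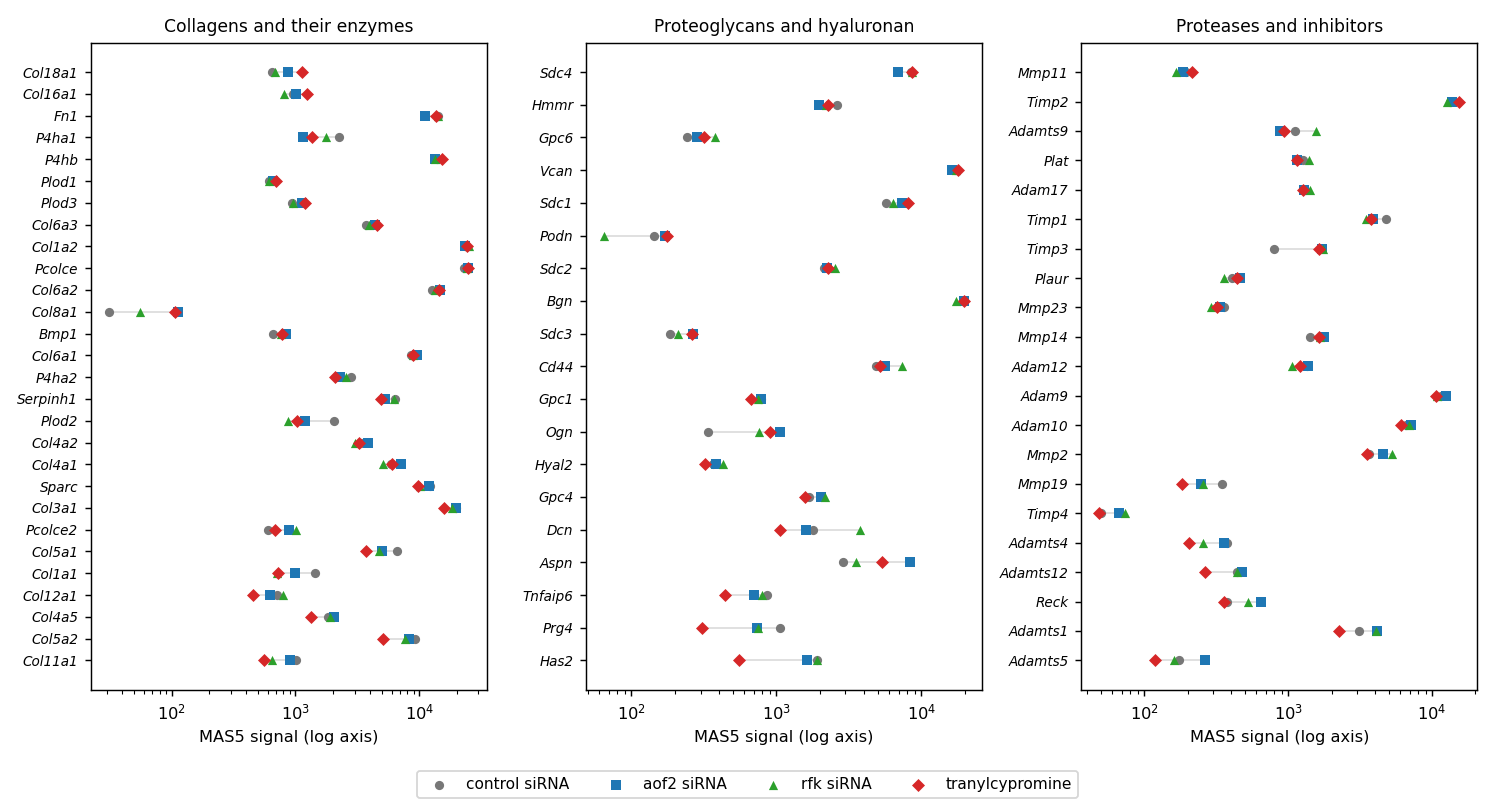
MAS5 signals (log axis) of the compared collagen, proteoglycan and protease genes, ordered in each panel from the highest to the lowest log2 difference of tranylcypromine minus aof2 siRNA, with 1 point per array. At the foot of each panel the tranylcypromine array lies left of the aof2 siRNA array, by -1.58 for Has2 and -1.26 for Prg4.

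Epithelial-type surface genes gave both directions, and several were put on their list because they were known to be high in these arrays. Of 18 compared members 11 were higher and 7 lower with tranylcypromine, with a median of 0.11. At least 1.5-fold higher were 6 and lower 1, beside 3.54% and 4.23% of all compared genes, a count that the choice of members affects, and 18 further members were below the limit. Msln, a surface glycoprotein of mesothelium, had 194, 846, 167 and 2149.6 on the arrays of control, aof2 and rfk siRNA and of the drug. Slurp1, a secreted Ly6-type protein, had 82.2, 445, 91.3 and 840.5, and Cystm1, a small membrane protein, 115, 458, 136 and 962. In all 3 the control and rfk siRNA arrays were low, aof2 siRNA was in between and tranylcypromine the highest. Krt19 (0.73), a keratin, Cd24a (0.72), a surface glycoprotein, and Pkp2 (0.75), of cell junctions, were also higher. Crip1 (0.12) and Tesc (0.29) differed less, and Tppp3 (-0.44) and Fam107a were higher with aof2 siRNA. Of the 4 epithelial markers, Cdh1 and Krt14 were below the limit, with signals of at most 21.8 and 30.2. Epcam, with 202, 285, 227 and 228 in the usual order, and Krt5, with 70.2, 68.5, 67.7 and 66.4, passed it.

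Lysosome and proton pump genes were mostly slightly higher. Of 33 compared members 26 were higher, with a median of 0.15 (0.12 to 0.17 elsewhere). At least 1.5-fold higher were 3, beside 3.54% of all compared genes. The 3 were Atp6v0e2, the sialidase gene Neu1 (0.81) and the pump subunit gene Atp6v0b (0.71). Atp6v0b had 1304, 1431 and 1269 in the siRNA arrays and 2335 with tranylcypromine, and Ctsd, a lysosomal protease, 4958, 7017 and 4595 and 10112. Tranylcypromine was the highest array for both, and in 25 of the 33, against 27.7% of all compared genes. Tfeb, a transcription factor gene of lysosomes, was the lowest at -0.54, from signals of at most 94.8, and the protease gene Ctsk stood at -0.48.

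Cell cycle genes were slightly lower with aof2 siRNA than with the inhibitor. Of 40 S phase genes 30 were higher with tranylcypromine, with a median of 0.15, and of 39 genes of G2 and M phase 33 were, with a median of 0.15. Over all compared genes, 3.54% were at least 1.5-fold higher and 4.23% lower. In these lists only Ccne1, which starts S phase, at 0.61, and Cenpe, a kinetochore motor, at -0.83, reached 1.5-fold. Their other probe sets did not, at 0.15 for Ccne1 and -0.016 for Cenpe. Ccne1 had 888, 521, 642 and 794 in the usual order. E2f1 and E2f2, which drive S phase genes, stood at 0.51 and 0.46, the histone chaperone gene Chaf1b at 0.50, and the mitotic kinase genes Nek2, Aurka and Plk1 at 0.49, 0.46 and 0.40. Averages over all probe sets gave -0.65 for Nek2, -1.91 for Chaf1b and -0.11 for E2f1, so the direction of these 3 is not settled. The aof2 siRNA array was the lowest of the 4 in 27 of the 40 and 30 of the 39 genes, against 22.1% of all compared genes. Earlier results had shown these lists below control with aof2 siRNA.

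Among p53 targets a few genes stood out without a common direction. Of 26 compared members 10 were higher and 16 lower, with a median of -0.077. Besides Sesn2 and Fas, the lowest was Eda2r, a receptor gene (-0.46), and Gadd45a followed (-0.44). Sesn1 and Sesn3, relatives of Sesn2, stood at -0.35 and -0.34. Cdkn1a and Mdm2, the best known targets, stood at -0.029 and 0.13, but a further probe set of Mdm2 gave -1.65. The highest, Plk3 (1.14), Pidd1 (0.93) and Tigar (0.59), had signals of at most 295, and the probe sets of Tigar reached down to -0.33.

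Amino acid response genes were mostly higher with tranylcypromine, by little. Of 29 compared members 22 were higher, with a median of 0.20 (0.19 to 0.23 elsewhere). Beside 3.54% of all compared genes, 2 of the 29 were at least 1.5-fold higher. They were the transaminase gene Gpt2 (0.82) and Chac1, which degrades glutathione (0.59). Phgdh, the first enzyme of serine synthesis, had 4666, 5022, 5484 and 7260.4 in the usual order, and the cysteine tRNA ligase gene Cars 737, 789, 862 and 1169.7. Atf4, the transcription factor gene, stood at 0.20, and Atf3 at -0.55 from dim signals. Tranylcypromine was the highest array in 19 of the 29, against 27.7% of all compared genes.

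Chaperones and antioxidant genes were close. Of 19 heat shock genes 15 were higher, with a median of 0.10, led by Hspa4l and its relative Hsph1, with 5370.0 against 3464, 3389.7 and 4083 in the siRNA arrays. Hspa4l had 2069 against 829, 1012 and 607, and 4 of its 5 probe sets were higher. The small heat shock gene Hspb1 stood at -0.20 and Hspa1b at -0.17. Of 27 NRF2 targets and glutathione genes 0 reached 1.5-fold, beside 3.54% of all compared genes higher and 4.23% lower. The list median was 0.072, and the outermost were the glutathione reductase gene Gsr (0.56) and Nqo1 (-0.34).

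Inflammatory genes, whose values against control were known from earlier results, gave both directions, with the largest differences on the lower side. Of 21 compared members 9 were higher and 12 lower with tranylcypromine. The median was -0.049, and 0.0079 at the upper end of the other settings. At least 1.5-fold lower were 3 and higher 0, beside 4.23% and 3.54% of all compared genes. Tranylcypromine was the lowest of the 4 arrays in 10 of the 21, against 28.1% of all compared genes. It was the highest in 4, against 27.7%. Ptx3, a pattern recognition protein, had 3773, 3201, 2532 and 1783 in the usual order, and Lcn2, an acute phase protein that binds iron carriers, 7864, 8846, 5026 and 4971. Their differences were -0.84 and -0.83, and that of the dim chemokine gene Ccl5 -0.92. On the other side stood the chemokine genes Ccl8 (0.52, dim), Cxcl5 (0.46) and Ccl2 (0.38). Cxcl5 had 1569 in the control, 686 with aof2 siRNA and 943 with tranylcypromine.

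Because only the siRNA cultures are labelled as transfected, genes that sense foreign RNA were examined. Of 24 compared interferon-stimulated and sensor genes 16 were lower with tranylcypromine, with a median of -0.071, and 16 named members were below the limit. The antiviral gene Ifit1 stood at -0.89, with 74.8, 152, 112 and 82.3 in the usual order. Gbp2 had 121, 98.5, 138 and 70.4, and Tap1 had 53.2, 70.4, 91.1 and 48.1. Tranylcypromine was the lowest of the 4 arrays in 7 of the 24 genes, against 28.1% of all compared genes. It was the highest in 6, against 27.7%. The sensor genes Ddx58 and Eif2ak2 stood at -0.24 and -0.19, Tlr3 at 0.37 from dim signals and the tetherin gene Bst2 at 0.54. Of 12 genes of the small RNA machinery 7 were lower, with a median of -0.16, Ago3 being the lowest at -0.58 and Ago2, which cleaves siRNA targets, standing at 0.035 with probe sets from -0.13 to 0.16. The part of transfection in the comparison was not tested.

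Glycolysis and clock genes tended to be higher with tranylcypromine. Of 26 glycolysis and hypoxia-inducible genes 21 were higher, with a median of 0.19 (0.18 to 0.20 elsewhere). The aof2 siRNA array was the lowest of the 4 in 13, against 22.1% of all compared genes. Egln3, an oxygen-sensing hydroxylase, had 514, 419, 462 and 681 in the usual order, and Bnip3, a mitophagy gene, 5083, 2807, 3303 and 3599. Adm (0.88), Eno2 (0.62) and Pfkfb3 (-0.75) were dim. Of 16 clock genes 12 were higher, with a median of 0.13. Cry1, a repressor of the clock, had 389.9, 149, 259 and 301, and Bhlhe40, a further repressor, 1404, 886, 1114 and 1635, with aof2 siRNA the lowest array for both. Nr1d2, a nuclear receptor of the clock, was the lowest member at -0.48.

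**Figure D5:**
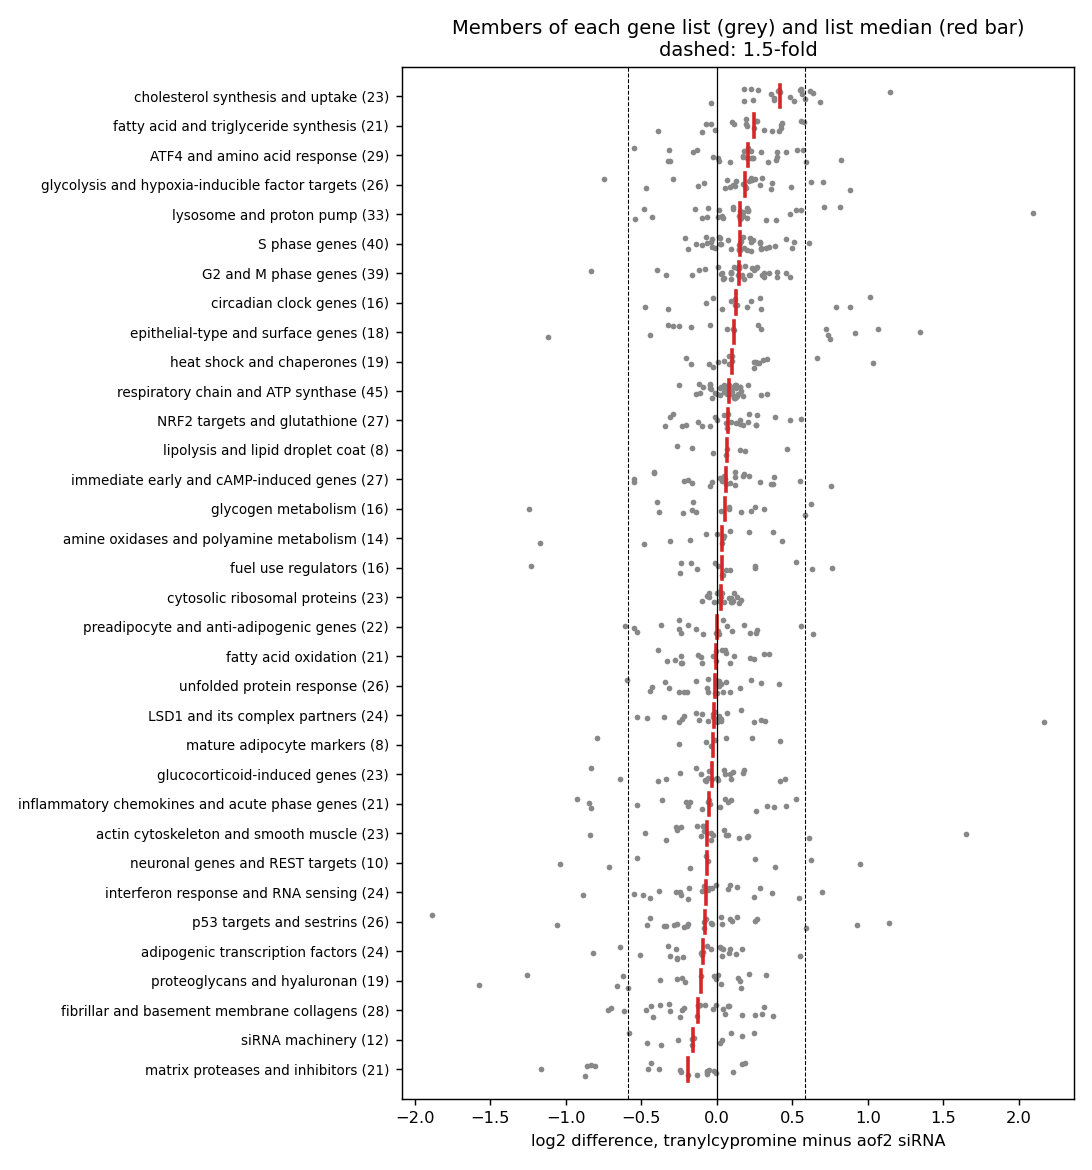
Log2 differences, tranylcypromine minus aof2 siRNA, of the compared members of 34 gene lists (grey points, with their number in brackets) and the list medians (red bars), ordered by median, with dashed lines at 1.5-fold. Cholesterol synthesis lies at the top with a median of 0.42 and matrix proteases at the foot with -0.19, and single points far from their list include Kdm1a, Atp6v0e2, Sesn2 and Has2.

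Contractile and glycogen genes held single differences and no common one. Of 23 actin cytoskeleton and smooth muscle genes 8 were higher and 15 lower, with a median of -0.064. Acta2, the actin of smooth muscle, had 3980.0 with tranylcypromine against 6127, 5539 and 4887 in the siRNA arrays, but 0.57 as an average of its probe sets, and Tagln (-0.84) was dim. Srf, the transcription factor gene of this programme, was higher at 0.61, as was Des at 1.65, for which the aof2 siRNA array had only 25.7, below the limit, against 88.3, 96.0 and 80.6 in the others. Of 16 glycogen genes 9 were higher and 7 lower, with a median of 0.054. Beside Ppp1r3c stood its relative Ppp1r3b (0.62) and Pgm1 (0.58), which interconverts glucose phosphates. Ppp1r3b was dim, with 32.6 on the aof2 siRNA array and 50.2 on the tranylcypromine array, both below the limit. The 23 ribosomal protein genes lay between -0.10 and 0.16, with a median of 0.025 that was negative in at least 1 of the other settings. Of the 23, 18 were higher and 5 lower. Tranylcypromine was the highest of the 4 arrays in 14 and the lowest in 0, against 27.7% and 28.1% of all compared genes.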

How the data were processed

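The authors deposited 1 intensity for each of 45101 probe sets on each of 4 arrays. The submitters' processing notes name MAS5, with no version. Leaving out the lowest and highest 2%, every array had a mean of 500.003, so the arrays had been scaled. Biotin-labelled cRNA came from 250 ng of total RNA, per the labels' protocols. The log2 of each signal was used as it stood. Platform annotation gave 34958 probe sets with 1 symbol, 932 with several and 9211 with none, checked against RefSeq (GRCm38.p6), which held 34754 of the 34958. Each gene was represented by its brightest probe set, by mean log2 over the arrays. Samples were grouped by their labels, with 1 array per group and therefore no test.

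The 37 gene lists (935 genes named on the arrays, 754 compared) and the genes described were chosen with earlier results of these data known. Named genes are the targeted and fuel use genes, the 15 highest and 15 lowest bright differences, the 10 bright genes furthest from the nearest other array on each side for both arrays, and up to 3 members at either end of a list; others were chosen after their values were seen. Alternatives were centring, quantile normalization, an offset of 16, other filters, other probe set rules and a 1.5-fold threshold. The steps were tested on simulated data. Python 3.11.15, NumPy 2.4.6, pandas 2.3.3 and matplotlib 3.10.9 were used.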

Additional observations from a re-analysis of the deposited data

Results flagged for a closer look

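Probe sets that carry no single gene symbol were left out of the gene comparison but hold signal of their own. Of 2723 such probe sets past the limit, 889 were bright, and 3 of these were at least 2-fold higher and 6 at least 2-fold lower with tranylcypromine than with aof2 siRNA. Of the 3, 2 were also at least 2-fold above the control siRNA array, which is why they are given here. They are unnamed here. The first had signals of 101 in the control, 231 in the aof2 siRNA, 166 in the rfk siRNA and 847 in the tranylcypromine array, and the second 289, 362, 297 and 852. In both the tranylcypromine array stood alone.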

How the results depend on the processing

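How many genes lay 2-fold apart depended on the handling of dim genes. Against 73 higher and 104 lower genes, adding 16 before the log gave 44 and 67, the stricter filter 7 and 17, no filter 1771 and 1716, averaging a gene's probe sets 138 and 196, a 1.5-fold threshold 382 and 456, and a 2-fold distance from all 3 siRNA arrays 24 and 38. Under the 4 remaining alternatives both counts stayed within 1.5 times. The yardstick for moves was the SD over both kinds of control transcripts together (0.17), which includes the difference between their means. Most list medians are smaller than this in size, so a move within it can change their sign. List medians moved by less than this SD in 235 cases and by more in 2. Both were the neuronal list, at 0.25 with no filter and 0.32 with averaged probe sets, which under the stricter filter kept fewer than 5 members and gave no median. Of the 34 lists 25 kept the sign of their median throughout and 9 did not. Flnc reversed, to -0.19, without _s_at and _x_at probe sets. Values of named genes moved by less than that SD in 1106 cases and by more in 105. The sign differed from the reported one in 30 of these values, for 29 of 247 named genes, and 24 of the 30 came from averaging all probe sets of a gene, dim ones included. The genes described above among them, Flnc apart, are Acta2, Chaf1b, E2f1, Ebf1, Fabp4, Foxo1, Ggps1, Hyou1, Insig2, Maoa, Nek2, Pank1, Slc27a1, Snai2 and Timp2. No paired analysis was possible because each group has 1 array. Single arrays, and the scatter of dim probe sets near background, limit the precision.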

Other observations

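Several gene groups outside the main themes were close to level between tranylcypromine and aof2 siRNA. Of 22 preadipocyte and anti-adipogenic genes 11 were higher and 11 lower, with a median of 0.0026. The Notch target gene Hes1 (0.64) and the zinc finger gene Gata2 (0.56) were at the upper end, and Zfp521 (-0.61), Wnt5a (-0.55) and Foxo1 (-0.53, but 0.034 as an average of its probe sets) at the lower. Of 26 genes of the unfolded protein response 15 were lower, with a median of -0.011, the outermost being the chaperone cofactor genes Sdf2l1 (-0.60) and Hyou1 (0.41, but -0.16 without probe sets that match several transcripts). The 23 glucocorticoid-induced genes had a median of -0.031. At least 1.5-fold lower were 2 and higher 0, beside 4.23% and 3.54% of all compared genes. The 2 were Lcn2 (-0.83) and Cebpd (-0.64), and the highest were Cavin2 (0.45, with another probe set at -0.027) and Ampd3 (0.42).

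Of 27 immediate early genes 18 were higher, with a median of 0.060. Dusp6, a phosphatase that ends ERK signalling, had 307, 431, 542 and 726 on the arrays of control, aof2 and rfk siRNA and of the drug, and Fos stood at -0.42 and Rgs2 at -0.55, with probe sets up to 0.12. Of 33 neuronal genes and REST targets named on the arrays only 10 passed the limit on signal, with a median of -0.066. Tubb3, a neuronal tubulin (0.39), Cplx1 (0.95) and Nrxn2 (-1.04) were all dim. Of 13 markers of macrophages and blood cells 3 were compared, of 10 endothelial ones 3 and of 12 muscle ones 2, namely Des and the dim Ckm (0.93).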
